A study of Mus musculus with 4 samples.

Results

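Csf1r, its ligands Csf1 and Il34, and the CSF-2 receptor genes Csf2ra and Csf2rb were followed across the cell types of the mouse brain. The genes were chosen by symbol, and all 5 were among the 31053 gene rows of the count tables. Counts came from single nuclei of untreated 2-month-old female mice of strain C57/BL6, with 2 WT libraries and 2 Csf1r+/- (HET) libraries. HET mice carry the targeted allele in every cell, and the labels do not say which part of the gene that allele lacks, so counts taken at the 3′ end of the transcript do not check the deletion.

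The receptor encoded by Csf1r is a tyrosine kinase on which microglia and other macrophages depend for survival and proliferation. CSF-1 and IL-34 both bind it, and in the adult brain IL-34 is known chiefly as a neuronal product and CSF-1 as a glial one. CSF-2, also called GM-CSF, acts through an alpha subunit (Csf2ra) that binds the cytokine and a common beta subunit (Csf2rb) that signals and is shared with the receptors for IL-3 and IL-5.

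A unique molecular identifier (UMI) marks 1 captured transcript, and levels are given as CPM, the UMIs of a gene scaled to a fixed total of UMIs over the same group of nuclei in the same library. After filtering, 16114 and 15247 WT nuclei and 9589 and 11182 HET nuclei remained, with medians of 5490, 4636, 7454 and 6656 UMIs per nucleus, so that HET nuclei were the more deeply counted. Between libraries, 272 barcodes were shared. Of 51 clusters, 11 stayed unnamed and held 7.54% of the nuclei. The others were named from their markers as microglia-like (661 nuclei), oligodendrocyte-like (2271), oligodendrocyte precursor-like (152), astrocyte-like (58), endothelial-like (456), fibroblast-like (50), excitatory neuron-like (28333), inhibitory neuron-like (15933) and other neuron-like (288), and are called microglia, oligodendrocytes and so on from here. In microglia, all 10 markers searched, C1qa, P2ry12 and Tmem119 among them, were detected in every library. Oligodendrocytes of WT replicate 2 stood apart, with 779 and 397 nuclei in 2 clusters that held at most 8 nuclei of any other library. The described genes were kept out of the variable genes that made the clusters.

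Upstream sequences were taken from RefSeq (GRCm38.p6) for the genes that had an entry, and are shown so that their CG content can be set beside where each transcript was found. They are the 250 bases before the annotated start of Csf1 (chr3:107760470-107760719, minus strand), of Csf2ra (chr19:61228419-61228668, minus strand) and of Csf2rb2 (chr15:78305722-78305971, minus strand), the paralog next to Csf2rb. Each runs 5′ to 3′ with CG pairs in capitals.
Csf1: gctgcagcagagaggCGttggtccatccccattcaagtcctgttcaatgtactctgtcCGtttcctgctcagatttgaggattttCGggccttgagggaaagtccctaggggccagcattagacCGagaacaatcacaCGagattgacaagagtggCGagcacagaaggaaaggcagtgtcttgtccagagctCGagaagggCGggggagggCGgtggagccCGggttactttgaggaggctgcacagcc
Csf2ra: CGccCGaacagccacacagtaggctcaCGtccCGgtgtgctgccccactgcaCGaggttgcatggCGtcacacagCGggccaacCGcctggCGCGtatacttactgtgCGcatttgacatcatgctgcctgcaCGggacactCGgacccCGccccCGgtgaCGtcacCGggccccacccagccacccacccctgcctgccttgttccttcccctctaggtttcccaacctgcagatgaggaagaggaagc
Csf2rb2: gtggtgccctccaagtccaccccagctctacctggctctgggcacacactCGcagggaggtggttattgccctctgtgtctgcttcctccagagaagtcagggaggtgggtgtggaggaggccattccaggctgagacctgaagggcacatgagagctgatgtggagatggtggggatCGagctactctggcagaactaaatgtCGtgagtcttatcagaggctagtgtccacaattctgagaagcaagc
The Csf2ra window held 17 CG pairs, and 23.5% of 32851 promoters of the same length held at least as many. The Csf1 window held 10 CG pairs (37.8% of promoters held at least as many) and the Csf2rb2 window 3 (71.0%). The median over all promoters was 6. Csf2ra, with the most CG pairs, gave 3946 UMIs in all, 89.5% of them in neurons and 0.532% in microglia. Csf1 gave 1875 UMIs, 64.5% of them in neurons and 0.853% in microglia. Csf2rb2, with the fewest CG pairs, gave 60 UMIs, 46.7% of them in neurons and 36.7% in microglia. Neurons held most UMIs over all genes, so a high neuronal share alone does not mark a neuronal gene. In WT replicate 1, excitatory and inhibitory neurons held 73065405 and 27129841 of 111488169 UMIs, and microglia 216245. That is a description of 3 windows, and a link between CG content and expression was not tested.

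Csf1r (chr18:61100598-61132149, plus strand) gave 2071 UMIs in the kept nuclei, and the genotypes differed in where these lay. In WT replicates 1 and 2, 56.3% and 38.3% of the Csf1r UMIs were in microglia and 18.3% and 18.4% in neurons. In HET replicates 1 and 2, 25.8% and 19.7% were in microglia and 56.4% and 64.8% in neurons. Unnamed clusters held 25.4% and 40.7% in WT and 17.0% and 13.9% in HET, so that the share that no named class holds also differed by genotype. Most of these were in a cluster led by Mertk, Tgfbr1, Inpp5d and C1qa in which 81.7% of the nuclei had high doublet scores, where Csf1r stood at 91.8 and 112 CPM in WT, against 59.6 and 88.7 CPM in HET.

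In microglia, Csf1r stood at 883 and 845 CPM in the 2 WT libraries (191 and 220 UMIs) and at 604 and 598 CPM in the 2 HET libraries (152 and 112 UMIs). Both HET libraries were below both WT libraries, and the means were 864 ± 26.9 CPM (SD, n = 2) in WT and 601 ± 4.17 CPM (SD, n = 2) in HET, 0.695 times the WT mean. Of the genes tested in microglia, 19.5% had both HET libraries below both WT libraries. Csf1r had a log2 change of -0.53 (SE 0.22) and was not called by the quasi-likelihood test of edgeR (adjusted p = 0.399, unadjusted p = 0.0301). By that test 0% of the 9423 genes tested in microglia were called at an adjusted p under 0.05, 944 had an unadjusted p under 0.05, and edgeR's likelihood-ratio test called 144 genes and DESeq2 27.

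The summed level of the 10 microglia markers overlapped between the genotypes. In microglia it was 14738 and 10077 CPM in WT, against 17105 and 14470 CPM in HET, with no marker at 0, and Csf1r gave 59.9 and 83.9 UMIs per 1000 marker UMIs in WT and 35.3 and 41.3 in HET. At least 1 Csf1r UMI was seen in 57.0% and 65.7% of WT, against 54.4% and 52.8% of HET microglia. Thinned to 1000 UMIs per nucleus, which left out 105 WT and 81 HET microglia with fewer, the shares were 52.6% and 59.8% in WT and 44.0% and 43.8% in HET. Up to 8 Csf1r UMIs were counted in a single microglial nucleus. A small unnamed cluster of 35 nuclei led by Cd74 and H2-Aa, genes of antigen presentation, also held Csf1r, at 10 and 8 UMIs in WT and 5 and 3 UMIs in HET.

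Csf1r ran in the opposite direction in neurons, at levels far below those of microglia. In excitatory neurons it stood at 0.397 and 1.33 CPM in WT (29 and 64 UMIs) and at 3.73 and 4.60 CPM in HET (219 and 291 UMIs). In inhibitory neurons it stood at 1.22 and 1.72 CPM in WT (33 and 41 UMIs) and at 5.24 and 4.12 CPM in HET (106 and 77 UMIs). In both classes the 2 HET libraries were above the 2 WT libraries, which held for 6.76% of the genes tested in excitatory and 11.3% of those tested in inhibitory neurons. The HET mean was 4.83 times the WT mean in excitatory neurons and 3.18 times in inhibitory neurons.

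The log2 change of Csf1r was 2.40 (SE 0.48) in excitatory neurons, where its unadjusted p of 0.00141 ranked 4 among 21603 genes, and 1.69 (SE 0.31) in inhibitory neurons, where its unadjusted p of 0.000276 ranked 1 among 20015 genes. Neither was called by edgeR's quasi-likelihood test (adjusted p = 1.0 in each), which called 0% of the genes in either class, with 648 and 498 genes at an unadjusted p under 0.05. Other tests of the same sums called it. DESeq2 called 0.00926% of the genes in excitatory neurons, 2 in all and Csf1r among them (adjusted p = 0.000989), and 0.005% in inhibitory neurons, where the adjusted p of Csf1r was 0.36. The likelihood-ratio test of edgeR called 0.00926% and 0.035% of the genes, Csf1r among them in both classes (adjusted p = 0.0234 and 0.00438). Over all alternatives the edgeR or DESeq2 adjusted p of Csf1r ran from 0.000989 to 1.0 in excitatory neurons. The edgeR quasi-likelihood test also called it there when WT replicate 1 (log2 change 1.77, adjusted p = 0.0333) or WT replicate 2 (3.38, adjusted p = 0.0174) was left out, but each of these fits has 1 WT library, assumed to vary like the 2 HET libraries, and a wider or narrower spread within WT could not be seen. With classes assigned from marker counts in each nucleus in place of clusters, the log2 changes were 1.60 and 0.75.

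**Figure D1:**
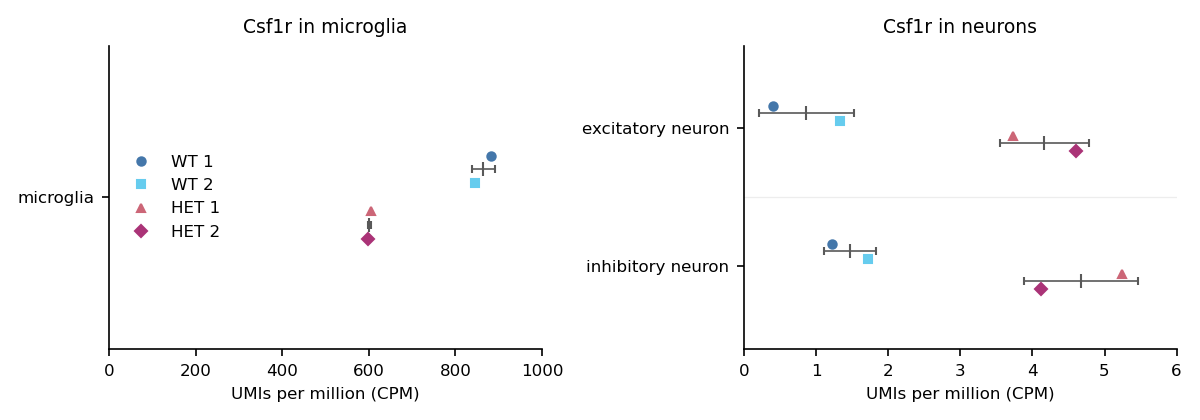
Csf1r in microglia (left) and in neurons (right), in CPM of the class (linear axes of different range). Points are libraries, and bars are the mean ± SD of the 2 libraries of a genotype. Both HET libraries sit below both WT libraries in microglia (604 and 598 against 883 and 845 CPM) and above them in excitatory and inhibitory neurons.

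The difference between the classes was tested directly, with a term for class by genotype in a fit over both classes and a term for each library. The log2 change of Csf1r in microglia minus that in excitatory neurons was -3.07 (SE 0.30), with an adjusted p of 1.88e-20, the lowest p among 21737 genes. Against inhibitory neurons it was -2.28 (SE 0.29), with an adjusted p of 1.93e-10, the lowest among 20238 genes. Of the genes in these fits, 0.685% and 0.578% were called with the neurons higher in HET. The term for each library takes out differences between libraries that both classes share, so the p-values of this fit do not measure them. With so few libraries, the test also took the spread chiefly from all genes together. The p-values therefore say little on how Csf1r itself varied between the libraries. Without the library term the adjusted p of the same edgeR quasi-likelihood test was 0.0253 and 0.000917, so the size of the p-values depends on that term. Against oligodendrocytes the difference was -0.86, with an adjusted p of 1.0, and oligodendrocytes held only 0 and 12 Csf1r UMIs in WT and 2 and 6 in HET.

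To set the neuronal counts beside RNA of microglial origin, the complement genes C1qa, C1qb and C1qc, which microglia make, were counted in the same nuclei. In excitatory neurons these 3 genes stood at 1.55 and 4.53 CPM in WT, against 2.42 and 2.31 CPM in HET, so that the genotypes overlapped. Per 100 C1q UMIs, Csf1r gave 19.4 and 27.7 UMIs in WT microglia and 10.3 and 13.4 in HET microglia. In excitatory neurons it gave 25.7 and 29.4 UMIs in WT and 154 and 199 in HET, and in inhibitory neurons 56.9 and 28.9 in WT and 131 and 133 in HET. The ratio in WT excitatory neurons was thus near or within the range of WT microglia, that in inhibitory neurons of WT replicate 1 was above it, and that in neurons of both HET libraries was above every other value. The whole list of 10 microglia markers summed to 43.5 and 70.7 CPM in WT, against 50.2 and 67.3 CPM in HET excitatory neurons, with no marker at 0, and gave 9.13 and 18.8 Csf1r UMIs per 1000 marker UMIs in WT against 74.3 and 68.4 in HET.

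Nuclei with a Csf1r UMI were 29 and 61 among WT and 209 and 282 among HET excitatory neurons. A C1q UMI was also present in 10.3% and 9.84% of these nuclei in WT (3 and 6 nuclei), against 1.18% and 2.795% of the other WT excitatory neurons. In HET it was present in 2.39% and 3.19% of them (5 and 9 nuclei), against 2.32% and 1.97% of the others. The gap to the other nuclei was thus wider in both WT libraries than in both HET libraries, on small counts and with no test. Excitatory neurons with a Csf1r UMI were also deeper than their class, at medians of 7492 and 8296 UMIs in WT and 12577 and 10087.5 in HET. These shares were not adjusted for depth. Among inhibitory neurons the same shares were 9.09% and 2.50% in WT, against 0.982% and 2.79% of the others, and 5.77% and 2.60% in HET, against 2.22% and 1.82%. Only 20 of 28333 excitatory neurons had 2 or more Csf1r UMIs, against 176 of 661 microglia. The share of excitatory neurons with a Csf1r UMI was 0.324% and 0.871% in WT and 3.95% and 3.98% in HET, at medians of 6703, 5796, 9338 and 7579 UMIs per nucleus. Thinned to 2000 UMIs, which left out 433 WT and 128 HET nuclei, it was 0.107% and 0.299% in WT and 0.806% and 0.957% in HET. In oligodendrocytes, which are not known to use the receptor, the share was 0% and 1.01% in WT and 0.462% and 1.96% in HET at medians of 1738, 1688, 2028 and 1833.5 UMIs, and the level of 0 to 9.56 CPM spanned those of the neurons. A share or level of that size in any 1 class is therefore not told apart from background, and the results for neurons rest on the difference between genotypes.

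The neuron subtypes gave the same direction almost throughout. Of 31 neuron clusters, 29 had at least 10 nuclei in every library, and in 20 of these both HET libraries were above both WT libraries for Csf1r, against 0 in which both were below. Among the 20 subtypes with at least 10 Csf1r UMIs, both HET libraries were above both WT libraries in 17. The same held for 12.2% of all pairs of gene and subtype tested, which have 10 or more counts. Subtypes are not replicates, since they come from the same 4 libraries. Csf1r could be tested in 20 subtypes and had a log2 change above 0 in 19 of them, with a median of 1.96. The exception was an inhibitory cluster led by Ano1 and Myo5b (-0.02), with 3 and 2 UMIs in WT and 3 and 2 in HET. The 10 counts needed were summed over both genotypes, so a subtype could pass chiefly through its HET libraries. The 17, the 19 and the median therefore depend in part on that filter and are a description only. In 14 subtypes the unadjusted p was under 0.05, and in 0 was the gene called (0.00467% of all pairs were), while 2 were called without WT replicate 2.

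The highest log2 change, 3.67 (SE 0.51), was in layer 6 corticothalamic-like neurons led by Foxp2 and Hs3st4. Csf1r gave 3 UMIs in each WT library there and 34 and 37 UMIs in the HET libraries, or 0.33 and 0.488 against 5.76 and 4.50 CPM, with an adjusted p of 0.273. In layer 2/3 cortical-like neurons the UMIs were 3 and 12 in WT and 33 and 52 in HET (log2 change 2.14). The inhibitory cluster led by Ebf1 and Zfhx3 held 17 and 21 UMIs in WT and 57 and 44 in HET (1.80). Pvalb interneuron-like nuclei held 4 and 4 in WT and 9 and 8 in HET (1.40). Mean levels over the 4 libraries ran from 1.35 to 4.51 CPM among these subtypes, and each overlapped its neighbour in the order, whereas microglia at 733 CPM stood clear of every other named group.

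**Figure D2:**
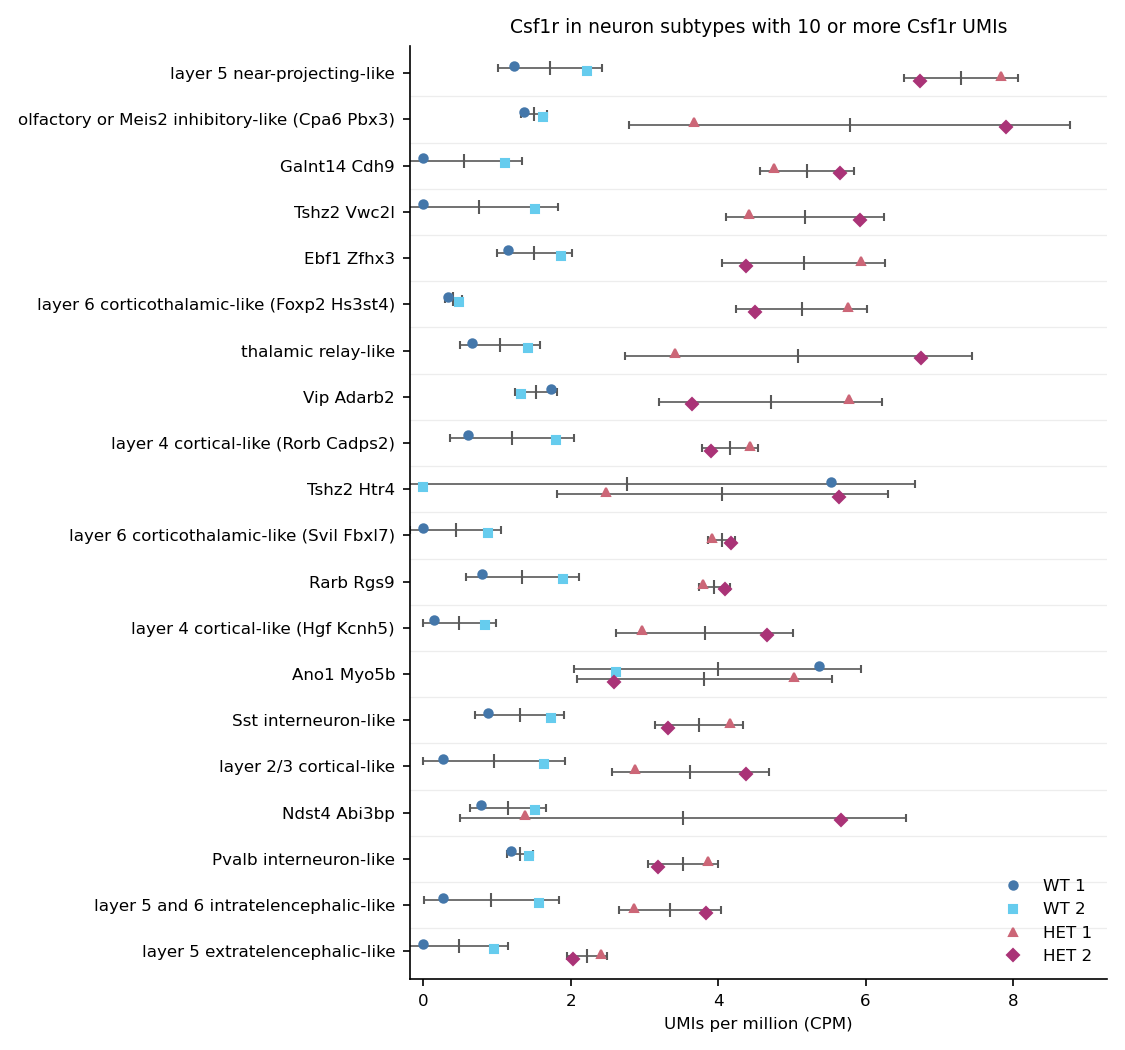
Csf1r in the 20 neuron subtypes with at least 10 Csf1r UMIs over both genotypes together, in CPM of the subtype. A subtype could pass that limit chiefly through its HET libraries. Points are libraries, and bars are the mean ± SD of the 2 libraries of a genotype. Both HET libraries lie above both WT libraries in 17 of the 20 subtypes, and the genotypes overlap in the others.

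Of the protein-coding neighbours of Csf1r, Pdgfrb, which encodes a receptor of mural cells, lies 15537 bases upstream. In excitatory neurons Pdgfrb stood at 0.83 and 1.10 CPM in WT, against 1.94 and 1.47 CPM in HET (log2 change 0.90, SE 0.31, adjusted p = 1.0). Both HET libraries were thus above both WT libraries, as for Csf1r. Its unadjusted p by edgeR's quasi-likelihood test was 0.0238, rank 289 among 21603 genes. In inhibitory neurons the log2 change of Pdgfrb was 0.38 (SE 0.35). Hmgxb3, whose 3′ end shares 873 bases with that of Csf1r on the opposite strand, stood at 29.97 and 31.0 CPM in WT, against 31.7 and 31.5 CPM in HET excitatory neurons (0.12, adjusted p = 1.0). In microglia Hmgxb3 gave 7 and 8 UMIs in WT and 14 and 13 in HET (0.96, adjusted p = 0.519). Whether reads of the shared stretch were assigned by strand is not given in the sources used here, and its part in the Csf1r counts was not tested.

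Across 37 cell classes and neuron subtypes, the genes whose log2(CPM + 1) was most like that of Csf1r by Pearson's r were C1qb (0.94), P2ry13 (0.93), Fcrls (0.93), Bin2 (0.93) and Trem2 (0.92). All 37 groups share the same 4 libraries. Microglia set this likeness, since Csf1r was low in every other named group.

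Il34 (chr8:110741829-110805924, minus strand) gave 6967 UMIs, of which 89.3% were in neurons and 0.0718% in microglia. Neurons held most UMIs over all genes, so the neuronal share alone does not set Il34 apart. Microglia, with the highest Csf1r level, held 1 and 3 Il34 UMIs in WT and 1 and 0 in HET. In excitatory neurons Il34 stood at 19.7 and 20.8 CPM in WT, against 19.4 and 18.9 CPM in HET. In inhibitory neurons it stood at 14.1 and 17.0 CPM in WT, against 16.0 and 16.4 CPM in HET. In excitatory neurons both HET libraries lay narrowly below both WT libraries, as they did for 21.1% of the genes tested there. In inhibitory neurons the genotypes overlapped. The log2 changes were -0.01 (SE 0.14) and 0.08 (SE 0.15), and neither was called. At least 1 Il34 UMI lay in 13.8% and 12.4% of WT, against 17.6% and 14.8% of HET excitatory neurons, and in 3.83%, 3.82%, 3.65% and 3.67% after thinning to 2000 UMIs, by library in the same order.

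Fibroblast-like nuclei, which had Col1a1, Col1a2, Dcn and Slc6a13 as markers, held the highest Il34 level. Only 7 and 14 UMIs in WT and 5 and 2 in HET lay behind levels of 208, 342, 303 and 138 CPM, and they came from 17 of the 50 nuclei. The log2 change was -0.40 (SE 0.84), the genotypes overlapped, and 0.0824% of the genes tested in that class were called. An unnamed cluster led by the vessel genes Vtn, Rgs5 and Flt1, in which 40.1% of the nuclei had high doublet scores, held 67.2 and 84.3 CPM in WT, against 77.8 and 121 CPM in HET. Endothelial nuclei held only 4, 3, 1 and 0 Il34 UMIs by library.

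Among neurons, Il34 was highest in Sst interneuron-like nuclei, which make somatostatin, at 39.6 and 54.2 CPM in WT, against 48.9 and 44.8 CPM in HET. Their range did not overlap that of the next group, an excitatory cluster led by Gnb4 and Nr4a2 at 31.3 to 36.2 CPM. Other inhibitory neurons were lower. Among those with at least 10 Il34 UMIs, the cluster led by Rarb and Rgs9 was highest by mean level, at 15.1 to 24.0 CPM. Pvalb interneuron-like nuclei stood at 7.41 and 8.61 CPM in WT, against 13.7 and 9.95 CPM in HET, and the pooled level in Sst interneuron-like nuclei was 4.88 times theirs and 4.04 times that of the cluster led by Vip and Adarb2.

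Cortical excitatory neurons were ordered below the Gnb4 cluster with overlapping neighbours throughout. Layer 4 cortical-like nuclei led by Hgf and Kcnh5 held 24.6 to 32.8 CPM, layer 5 and 6 intratelencephalic-like nuclei 22.6 to 26.7 CPM and layer 2/3 cortical-like nuclei 18.8 to 20.9 CPM. Layer 6 corticothalamic-like nuclei led by Foxp2 held 9.32 to 13.3 CPM, while those led by Svil and Fbxl7 held 17.4 to 19.6 CPM. Layer 4 cortical-like nuclei led by Rorb and Cadps2 held 17.5 to 20.3 CPM, so that clusters given the same layer name differed. Svil was a listed marker of layer 6b. Scn7a and Boc, among the leading genes of the Hgf and Kcnh5 cluster, were listed for layer 5 and 6 intratelencephalic neurons. Clusters that share a layer name may therefore not share a layer. Thalamic relay-like nuclei were lower by mean level and overlapped the nuclei led by Foxp2, at 7.29 to 9.86 CPM. Dentate granule-like nuclei held 0 Il34 UMIs in all 4 libraries over 279 nuclei, which allows up to 2.21 CPM, while CA3 pyramidal-like nuclei of the same region held 20.9 to 26.8 CPM. These bounds cover counting error only.

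Genotype did not separate Il34 in the subtypes. In 26 subtypes that could be tested the log2 change ran from -0.87 to 0.56 with a median of -0.05, and 0 were called, with 0 at an unadjusted p under 0.05. Both HET libraries were below both WT libraries in 5 of the 26 and above them in 1. Of all genes tested, 14.4% to 21.6% by subtype were below in this way and 7.04% to 16.9% above. The transcript most like Il34 over the 37 groups was Ptges3l, with an r of only 0.72. Il34 also shares 3979 bases with Gm15894 and 287 bases with Gm15895 on the opposite strand, and these were not separated here.

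**Figure D3:**
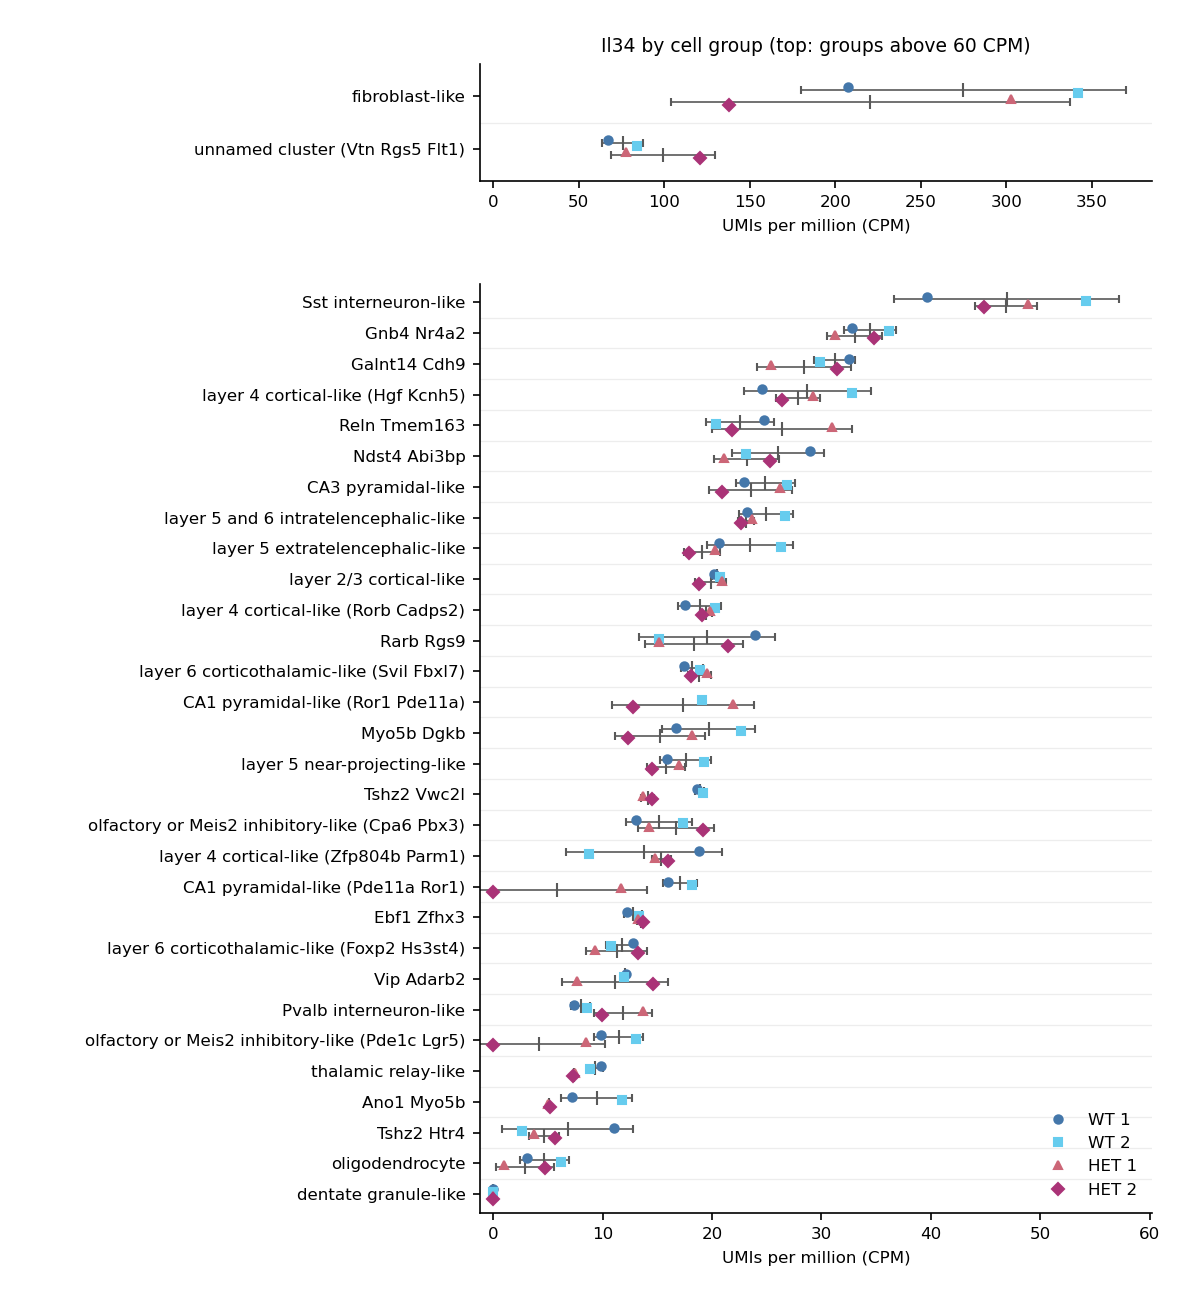
Il34 in the named groups with at least 10 Il34 UMIs, in the unnamed cluster led by Vtn and in dentate granule-like nuclei, in CPM of the group, with a wider axis for the 2 groups above 60 CPM. Points are libraries, and bars are the mean ± SD of the 2 libraries of a genotype. Sst interneuron-like nuclei lie above all other neuron subtypes, and dentate granule-like nuclei lie at 0 in every library.

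Csf1 (chr3:107741048-107760469, minus strand) had its highest level in oligodendrocytes. It stood there at 89.0 and 54.8 CPM in WT (58 and 123 UMIs) and at 101 and 86.1 CPM in HET (100 and 54 UMIs), and WT replicate 1 lay between the HET libraries. Endothelial nuclei, at 31.1 and 32.3 CPM in WT, against 42.4 and 13.7 CPM in HET, did not reach the oligodendrocyte range. Among the named groups with at least 10 Csf1 UMIs, microglia followed at 23.1 and 11.5 CPM in WT, against 15.9 and 21.4 CPM in HET. Their level rested on 3 to 5 UMIs per library and overlapped that of endothelial nuclei. Oligodendrocyte precursors (1, 5, 2 and 1 UMIs by library), fibroblast-like nuclei (2, 0, 1 and 0) and astrocytes (2, 1, 0 and 0) held too few to be placed in this order. Neurons were low, with 3.08 and 4.36 CPM in WT, against 3.88 and 3.42 CPM in HET excitatory neurons, yet for their number they held 64.5% of the 1875 Csf1 UMIs. Of the neuron subtypes, dentate granule-like nuclei (4.67 to 11.9 CPM) and layer 2/3 cortical-like nuclei (5.08 to 7.51 CPM) were highest by mean level, with overlapping ranges.

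The log2 change of Csf1 in oligodendrocytes was 0.56 (SE 0.27, adjusted p = 0.549, unadjusted p = 0.0466), where 0.42% of 12606 genes were called. It was 0.91 (adjusted p = 0.0276) without WT replicate 1 and 0.11 without WT replicate 2, the library whose oligodendrocytes stood apart, with 1 WT library in each of these fits, assumed to vary like the HET libraries. Oligodendrocyte clusters also differed in Csf1 within a library. The cluster led by Prr5l and St18, with Anln, Neat1 and Apod among its leading genes, held 114 CPM in WT replicate 1 and 149 and 122 CPM in HET, against 55.0, 72.7 and 54.3 CPM in the cluster led by St18 and Ptgds. The clusters of WT replicate 2 with like leading genes held 62.6 and 50.9 CPM. In endothelial nuclei the log2 change was -0.19 (SE 0.67, adjusted p = 0.969, 0.25% of genes called), in microglia 0.11 (SE 0.76), in excitatory neurons 0.05 (SE 0.24) and in inhibitory neurons 0.11 (SE 0.27). In 18 neuron subtypes tested, 0 were called and the log2 change ran from -1.37 to 0.32. Zzz3 (r = 0.90) and Chtop (0.86) were the transcripts most like Csf1 over the 37 groups.

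Csf2ra (chr19:61223957-61228429, minus strand) gave at least 10 UMIs in each of the 29 neuron subtypes that had at least 10 nuclei in every library. It stood at 8.87 and 11.5 CPM in WT, against 11.6 and 8.89 CPM in HET excitatory neurons, and at 10.3 and 13.1 CPM in WT, against 13.5 and 10.2 CPM in HET inhibitory neurons. WT replicate 2 and HET replicate 1 were the higher libraries in both classes, and the genotypes overlapped. Over the 29 subtypes the mean level ran from 6.88 to 20.5 CPM with most subtypes close together. Dentate granule-like nuclei and the cluster led by Fign and Kcnmb2 each fell as low as 0 CPM in a library. By mean level microglia were the highest of 31 named groups, at 23.8 CPM, and overlapped the next group, while oligodendrocytes stood at 10.9 CPM. The microglial level rested on 6, 2, 7 and 6 UMIs by library, or 27.7 and 7.68 CPM in WT, against 27.8 and 32.0 CPM in HET. The log2 change was 0.79 (SE 0.71, adjusted p = 0.797) in microglia, 0.09 (SE 0.20) in excitatory and 0.04 (SE 0.20) in inhibitory neurons. In 29 neuron subtypes tested 0 were called, and the log2 change ran from -2.47, in dentate granule-like nuclei, to 1.59. The transcripts most like Csf2ra over the 37 groups, Arid2 (r = 0.75) and Wac (0.75), encode widely expressed nuclear proteins.

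Csf2rb (chr15:78325752-78353847, plus strand) had its highest level among the named classes in microglia, but of its 97 UMIs microglia held only 29.9%, neurons 33.0% and unnamed clusters 35.1%. It gave 7 and 7 UMIs in WT and 7 and 8 in HET microglia, at 32.4, 26.9, 27.8 and 42.7 CPM, and 22 UMIs over all 28333 excitatory neurons, at no more than 0.136 CPM in any library. The unnamed cluster led by Cd74 held 2, 1, 0 and 2 UMIs. The log2 change in microglia was 0.22 (SE 0.56, adjusted p = 0.936), and the genotypes overlapped. Its likeness to Cd37 (r = 0.99), Tyrobp (0.98) and Adgre1 (0.97) rests on microglia. No neuron subtype held Csf2rb above 0.618 CPM in any library.

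The paralog Csf2rb2, which encodes a beta subunit for IL-3, gave 3 and 5 UMIs in WT and 7 and 7 in HET microglia (13.9, 19.2, 27.8 and 37.4 CPM; log2 change 0.92, SE 0.65, adjusted p = 0.721). Reads of the pair can be hard to assign. Of 60-base windows of the 4900-base Csf2rb transcript 14.6% were identical in Csf2rb2, and of 90-base windows 8.19%, but 0% in the last 500 bases, where 3′ counting takes most reads.

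**Figure D4:**
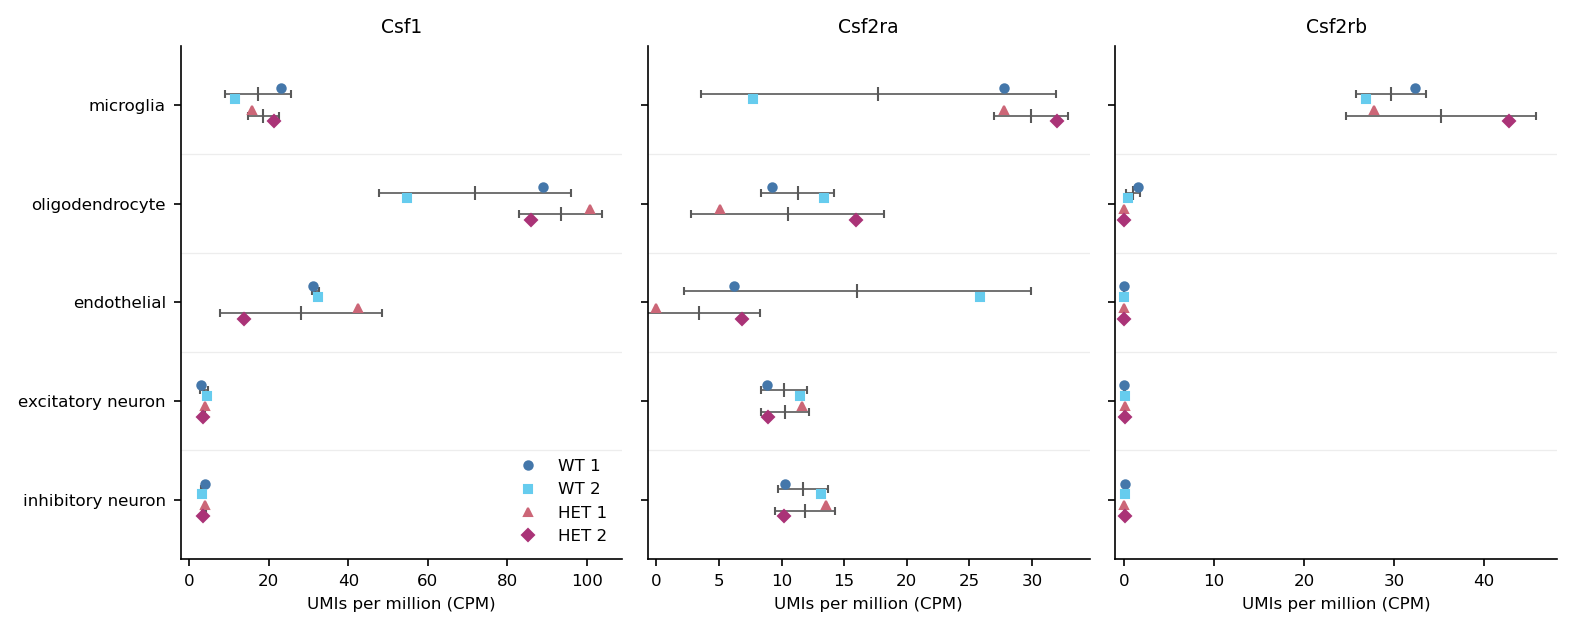
Csf1, Csf2ra and Csf2rb in microglia, oligodendrocytes, endothelial nuclei and excitatory and inhibitory neurons, in CPM of the class. Each gene has a linear axis of its own, and the other classes are not shown. Points are libraries, and bars are the mean ± SD of the 2 libraries of a genotype. Csf1 is highest in oligodendrocytes. Csf2ra is near 10 CPM in neurons and higher by mean level in microglia. Csf2rb lies between 26.9 and 42.7 CPM in microglia and near 0 in neurons.

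Other genes of the pathway were taken from fixed lists. The cytokine gene Csf2, the genes Il3, Il5, Il3ra and Il5ra of cytokines and receptors that use the common beta subunit, and Csf3, which encodes G-CSF, gave 0 UMIs in microglia in all 4 libraries. Csf3r, whose product binds G-CSF without that subunit, gave 370 and 442 CPM in WT, against 433 and 465 CPM in HET microglia (log2 change 0.14, adjusted p = 0.911). Of 16 genes of signalling below the receptors, all 16 were tested in microglia and 0 were called. Of these, 13 had a log2 change above 0 and 3 below, with a median of 0.35 beside 0.01 over all genes tested, and 1 had an unadjusted p under 0.05. The 10 microglia markers moved with them, all 10 with a log2 change above 0 (0.14 for P2ry12 to 0.53 for C1qc) and 0 called, and their part in the shift of the list was not tested. The gene of the lowest p was Cbl, which encodes a ubiquitin ligase of activated CSF-1 receptor, at 162 and 211 CPM in WT, against 342 and 326 CPM in HET (0.83, SE 0.25, adjusted p = 0.165). In excitatory neurons 8 of the 16 were above 0 and 8 below, with 0 called.

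Of 5 transcription factors of the macrophage lineage, 4 were tested in microglia, all 4 had a log2 change above 0, with a median of 0.42 beside 0.01 over all genes tested, and 0 were called. As with the signalling genes, the microglia markers moved the same way. Spi1, which encodes PU.1, stood at 213 and 150 CPM in WT, against 274 and 246 CPM in HET (0.53, SE 0.27, adjusted p = 0.536), and Runx1 at 647 and 503 CPM in WT, against 763 and 705 CPM in HET (0.35, SE 0.23, adjusted p = 0.692). Of 3 other proteins that bind IL-34, Sdc1 gave 0 UMIs in microglia, Trem2 had a log2 change of 0.27 (SE 0.24, adjusted p = 0.792) and Ptprz1 one of -2.29 (SE 0.64, adjusted p = 0.142), from 8 and 20 UMIs in WT and 2 and 3 in HET. Ptprz1 is a gene of astrocytes and oligodendrocyte precursors, and the part of other cells' RNA in its microglial counts was not tested. Its log2 change was also below 0 in excitatory neurons (-0.63, SE 0.14), oligodendrocytes (-0.98, SE 0.36), endothelial nuclei (-1.25, SE 0.63) and fibroblast-like nuclei (-5.61, SE 1.91). It was near 0 in inhibitory neurons (-0.003, SE 0.10) and oligodendrocyte precursors (-0.07, SE 0.44). In astrocytes (0.35, SE 0.40) and other neurons (0.31, SE 0.20) it was above 0. Ptprz1 was called in none of these classes.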

How the data were processed

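Nuclei from the brains of WT and Csf1r+/- (HET) mice were profiled by droplet single-nucleus RNA sequencing, with 2 libraries per genotype analysed here. The other library of each genotype was not analysed here. Per the file headers and the submitters' processing notes, the authors made the deposited UMI counts with Cell Ranger 5.0.0 on mm10. Whether intronic or antisense reads were counted is not given in the sources used here.

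The 5 genes, the pathway lists and the tests were chosen with earlier results of these data known. Filtering kept nuclei that had between 500 and 50000 UMIs, over 200 detected genes and a mitochondrial share below 5%. Doublets were scored with Scrublet at an expected 0.8% per 1000 nuclei and were not removed, but clusters in which over 50% of the nuclei had high scores stayed unnamed. Clusters were made with scanpy 1.11.5 and leidenalg 0.10.2 (3000 variable genes, 30 principal components, 20 neighbours, resolution 1), with non-neuronal clusters clustered again. Non-neuronal classes and neuron subtypes were named where at least 3 markers were found in 10% of nuclei at 2 times the level elsewhere. Neuron classes needed Snap25, Syt1 and Rbfox3 together at 0.5 times their level over all nuclei or more. Excitatory clusters had Slc17a7 and Slc17a6 together at 2 times Gad1, Gad2 and Slc32a1 or more, and inhibitory clusters the reverse. Both also needed 3 markers in 10% of nuclei, at any level elsewhere. The naming rules were set after the clusters had been seen, and so were the added alternatives named as such.

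For each class, or neuron subtype, the UMI counts of a library's nuclei were added up, and these sums were tested with edgeR 4.0.16 (quasi-likelihood, TMM, genes with 10 or more counts, Benjamini-Hochberg adjusted p under 0.05), after a test on simulated data. DESeq2 1.42.0 was an alternative. Nuclei are not replicates, and p-values of the tests within a class or subtype measure the spread between these libraries. That spread was not taken from a single gene alone, since the quasi-likelihood test of edgeR shares it over all genes tested. With so few libraries, these p-values say little on how a single gene varied between them. In the fit over both classes with a term for each library, the spread that both classes of a library share is taken out. The spread used in that fit came chiefly from all genes together. An exact permutation test of 2 against 2 cannot go below 0.333, so none was run on single values. Intervals and limits cover counting error only. All 5 genes are given whatever their values. Other genes came from the pathway lists, the neighbours of Csf1r and the 5 genes most like each gene over 37 groups, among 16171 compared. Positions are from GENCODE M21 (mm10).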

Additional observations from a re-analysis of the deposited data

Results flagged for a closer look

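The genotype effect on Csf1r differed between cell classes. In a test of the difference itself, the log2 change in microglia was lower than that in excitatory neurons by a difference of -3.07 (SE 0.30) and differed from that in inhibitory neurons by -2.28 (SE 0.29). Left out 1 library at a time, the differences ran from -3.97 to -2.29 and from -2.51 to -1.97. Both were called with library totals and without the library term. The difference was not run with classes from marker counts, the other clustering resolution, the UMI and doublet filters, the likelihood-ratio test or DESeq2. Both HET libraries showed the direction in each class. The microglia markers in the same neurons overlapped between the genotypes, at 43.5 to 70.7 CPM in WT and 50.2 to 67.3 CPM in HET excitatory neurons, whereas HET neurons were the more deeply counted, at medians of 9338 and 7579 UMIs against 6703 and 5796. The part of depth in the difference was not tested beyond thinning.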

How the results depend on the processing

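Csf1r in microglia stayed below 0 and uncalled under every alternative (log2 change -0.62 to -0.43, adjusted p from 0.0971 to 0.753). In excitatory neurons Csf1r stayed above 0 throughout and was called by edgeR's likelihood-ratio test (log2 change 2.38), by DESeq2 (2.41) and without either WT library, with a range of 1.77 to 3.38 over the fits that left out 1 library. In inhibitory neurons it was called by the likelihood-ratio test (1.69). The number of neuron subtypes in which it was called ran from 0 to 2 when 1 library was left out, and the number above 0 from 15 to 19. Csf1 in oligodendrocytes ran from 0.11 to 0.91 and was called without WT replicate 1. Fits that leave out a library have 1 sample in that genotype, assumed to vary like the others, so a call gained in them is weak evidence.

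Small changes turned direction, and in none of these was the gene called. With classes from marker counts the log2 change was -0.76 for Csf1r in oligodendrocytes, 0.022 for Il34 in excitatory neurons, 0.61 for Csf1 in endothelial nuclei and -0.23 for Csf1 in inhibitory neurons. At clustering resolution 0.5 Csf1 was at 0.46 in endothelial nuclei and -0.30 in microglia. With 1000 or more UMIs per nucleus it was at 0.0031 in endothelial nuclei, and with library totals at -0.023 in excitatory neurons. Leaving out 1 library gave ranges of -0.76 to 1.33 for Csf1r in oligodendrocytes, and for Il34 of -0.052 to 0.024 in excitatory neurons, -0.015 to 0.19 in inhibitory neurons, -1.09 to 0.11 in fibroblast-like nuclei and -0.13 to 0.23 in Sst interneuron-like nuclei. For Csf1 the ranges were -1.16 to 0.39 in endothelial nuclei, -0.38 to 0.64 in microglia, -0.13 to 0.24 in excitatory and -0.050 to 0.31 in inhibitory neurons. For Csf2ra they were -0.14 to 0.29 in excitatory and -0.19 to 0.23 in inhibitory neurons, and for Csf2rb in microglia -0.088 to 0.50. Csf1r in the cluster led by Tshz2 and Htr4 ran from -0.52 to 5.18. The difference of Csf1r between microglia and oligodendrocytes ran from -5.02, without WT replicate 2, when the remaining WT library had 0 UMIs in oligodendrocytes, to 0.34. For the other turns the cause was not tested.

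The number of genes called ran over the alternatives from 0 to 288 in microglia, 0 to 197 in excitatory neurons, 0 to 208 in inhibitory neurons and 0 to 372 in oligodendrocytes (53 as reported), the highest in each class without WT replicate 1. The libraries share only a replicate number, and the deviations of same-numbered libraries correlated at 0.032 in microglia, 0.014 in excitatory and 0.074 in inhibitory neurons (-0.11 to 0.33 over the classes). With the replicate block the log2 change of Csf1r was -0.53 in microglia, 2.52 in excitatory and 1.69 in inhibitory neurons, no gene of the 5 changed its call, and the genes called were 141 in microglia, 178 in oligodendrocytes and 0 in both neuron classes. A crossed block, added after seeing the data for groups with a correlation under -0.1, called 11 genes in other neurons (6 with the block as numbered) and 0 in layer 2/3 cortical-like neurons. With 16 Csf1 and 29 Csf2rb UMIs over all microglia, depth limits what could be detected for these genes.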
